A study of Rattus norvegicus with 9 samples.

Results

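The nuclear genes of the mitochondrial ribosomal proteins were followed in RNA of rat kidneys from 3 groups of 3 rats. They were taken as all rows of the gene table whose symbol begins with Mrpl or Mrps followed by a digit and that reached at least 1 CPM (a read count scaled to the same total in every library) in at least 3 libraries. The symbol pattern found 76 rows of 36267, and 75 of these 76 passed the filter on low values, among 16731 rows that passed it in all. The row that failed, Mrps21l, had 2 reads over all 9 libraries. Icariin rats received icariin, a flavonoid glycoside of Epimedium plants, into the stomach at 100 mg/kg on each of 3 days, and then the whole contrast protocol. Rats with contrast-induced acute kidney injury (CIAKI) received that protocol alone: furosemide, a loop diuretic, into the stomach at 200 mg/kg, 6 h of dehydration, and then intravenous iopromide, an iodinated contrast medium (370 mg I/mL), at 15 mL/kg. Control rats had no treatment, so furosemide, dehydration and contrast medium always come together here and cannot be told apart. All rats weighed 180 to 200 g, and the sources used here give neither their age and strain nor the time of kidney removal.

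Mitochondria carry their own ribosomes, which translate the few respiratory chain subunits that mitochondrial DNA encodes. The ribosomal RNAs are made in the mitochondrion, whereas every ribosomal protein is encoded in the nucleus, made in the cytosol and imported. Some of these proteins have a counterpart in bacterial ribosomes, and others are found in mitochondria alone. Proximal tubule cells of the kidney are rich in mitochondria and depend on respiration for their transport work.

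Of the 75 genes, 48 encode proteins of the large subunit and 26 of the small subunit. Mrps18a and Mrps30 are counted with the large subunit, where their proteins sit in spite of their names. The remaining gene, Mrps36, is named as a ribosomal protein, but its product is known as a component of the 2-oxoglutarate dehydrogenase complex. By origin, 43 encode proteins with a bacterial counterpart and 31 encode mitochondria-specific ones. Members averaged 5.05 CPM (Mrpl36) to 97.1 CPM (Mrpl15) over the 9 libraries, with a median of 24.6 CPM. The most read were Mrpl15, Mrpl12 (72.9 CPM), Mrpl17 (72.8 CPM), Mrps18b (63.0 CPM) and Mrpl10 (53.9 CPM), an order that gene length enters, since CPM is not per length. The lowest count of any member in any library was 257 reads and the highest 9036 reads. Relative to the level, counting error is largest for the least read members, such as Mrpl36.

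The bases just before the transcription start are shown for the 4 genes that rose most in CIAKI among those with a promoter in the reference table and no other gene inside them, and for the gene that fell most. Each line gives 250 bases upstream of the start from RefSeq (GRCr8), 5′ to 3′ on the gene's strand, and capitals mark matches to the motifs described further on.
Mrps18b, chr20:2842756-2843005, plus strand: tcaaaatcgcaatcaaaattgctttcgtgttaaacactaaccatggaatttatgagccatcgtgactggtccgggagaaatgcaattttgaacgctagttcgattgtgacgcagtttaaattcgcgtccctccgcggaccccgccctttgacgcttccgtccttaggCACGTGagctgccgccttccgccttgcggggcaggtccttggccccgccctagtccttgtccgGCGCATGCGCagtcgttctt
Mrpl50, chr5:68668088-68668337, minus strand: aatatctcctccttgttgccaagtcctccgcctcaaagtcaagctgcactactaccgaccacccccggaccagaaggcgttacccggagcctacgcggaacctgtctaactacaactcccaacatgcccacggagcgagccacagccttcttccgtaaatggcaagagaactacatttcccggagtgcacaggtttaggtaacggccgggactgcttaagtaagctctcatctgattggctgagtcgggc
Mrps27, chr2:32473954-32474203, plus strand: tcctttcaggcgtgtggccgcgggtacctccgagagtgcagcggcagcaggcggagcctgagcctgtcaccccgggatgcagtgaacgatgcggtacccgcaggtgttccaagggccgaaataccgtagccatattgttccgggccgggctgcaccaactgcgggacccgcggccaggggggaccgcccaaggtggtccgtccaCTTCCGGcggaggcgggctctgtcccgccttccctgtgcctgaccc
Mrpl17, chr1:169575700-169575949, minus strand: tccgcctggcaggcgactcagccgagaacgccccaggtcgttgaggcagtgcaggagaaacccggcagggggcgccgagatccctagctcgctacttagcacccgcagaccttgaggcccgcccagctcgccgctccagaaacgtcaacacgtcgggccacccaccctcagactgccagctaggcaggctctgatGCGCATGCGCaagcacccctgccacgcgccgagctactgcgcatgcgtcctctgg
Mrps26, chr3:138222074-138222323, plus strand: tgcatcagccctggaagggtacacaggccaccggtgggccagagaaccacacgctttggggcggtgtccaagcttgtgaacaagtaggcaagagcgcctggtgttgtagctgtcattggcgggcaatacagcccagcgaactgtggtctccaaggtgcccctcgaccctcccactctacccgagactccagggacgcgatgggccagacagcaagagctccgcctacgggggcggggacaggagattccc
Capitals mark an NRF1 and an E-box motif before Mrps18b, an ETS motif before Mrps27 and an NRF1 motif before Mrpl17. The windows before Mrpl50 and Mrps26 held none of the motifs searched.

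Between libraries, 1 CPM was worth 64.4 to 90.4 reads. Defining markers of proximal tubule, thick ascending limb, distal tubule, collecting duct and podocytes were present in all libraries. In CIAKI kidneys 5 of 6 proximal tubule markers fell and none rose, with a summed level of 7120 to 9880 CPM in CIAKI kidneys, against 18600 to 22200 CPM in control kidneys. Podocyte markers fell in 3 of 3 cases, distal tubule and endothelial markers in 2 of 2 each, thick ascending limb markers in 2 of 3 and macrophage markers in 2 of 4. Of 4 collecting duct markers 2 rose and 1 fell, of 3 mesenchymal markers 1 rose and 1 fell, and 0 of 3 adipocyte markers passed. All 4 markers of tubular injury rose (1890 to 6050 CPM in CIAKI, against 203 to 464 CPM in control), and 2 of 3 erythroid markers rose (1700 to 2040 CPM in CIAKI, against 188 to 1090 CPM in control). Of the lymphocyte markers tested, 3 of 3 fell (5.62 to 9.22 CPM summed in CIAKI, against 22.1 to 24.9 CPM in control). In icariin kidneys the proximal tubule sum was 17900 to 19700 CPM and the injury sum 272 to 551 CPM. Not every set was near control there. The distal tubule sum was 695 to 842 CPM in icariin, against 715 to 775 CPM in CIAKI and 1210 to 1330 CPM in control. The collecting duct sum was 842 to 1150 CPM in icariin, against 642 to 965 CPM in CIAKI and 623 to 680 CPM in control. The part of these shifts in the values below was not tested, and in bulk tissue fewer cells of a type and less RNA per cell cannot be told apart.

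The comparison of CIAKI with control kidneys asks what the contrast protocol did to these genes. More members rose than fell: 21 were higher in CIAKI kidneys, 4 were lower and 50 did not pass the test (limma on log2(CPM + 1), Benjamini-Hochberg adjusted p below 0.05). The shifts were small, with a median log2 fold change of 0.13 over the members, against 0 over all rows tested, and a range of -0.41 to 1.07. With upper-quartile scaling the median was 0.07, with 20 members higher and 6 lower. Fold changes on this scale understate those of genes with low values. As a share, 28.0% of members were higher, beside 20.8% of all rows tested, and 5.33% were lower, beside 20.5%. In either direction 33.3% of members passed, beside 41.3% of all rows. The estimate was positive for 54 of 75 members. All 3 CIAKI libraries lay above all 3 control libraries for 28 members (26.9% of all rows did so), and below them for 5 members (26.5% of all rows).

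Mrps18b, which encodes a small subunit protein, had the smallest adjusted p of the members in this comparison. It is classed here as mitochondria-specific, although its relative Mrps18c is classed with a bacterial counterpart. Mrps18b had 96.6, 82.6 and 87.5 CPM in CIAKI kidneys, against 49.9, 49.2 and 50.9 CPM in control kidneys. The lowest CIAKI library was well above the highest control library, and the log2 fold change was 0.81 (SE 0.07, limma adjusted p = 7.2e-05). Mrps27, an RNA-binding protein of the pentatricopeptide repeat family in the same subunit, had 31.4, 29.3 and 29.0 CPM in CIAKI, against 20.8, 19.2 and 20.9 CPM in control. It rose by 0.54 on the log2 scale (SE 0.09, limma adjusted p = 0.0013), and the groups did not overlap.

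Mrps6, a small subunit protein with a bacterial counterpart, had the largest estimate and the largest SE. Its values were 28.7, 49.9 and 28.4 CPM in CIAKI kidneys, against 16.0, 20.9 and 12 CPM in control kidneys. The second CIAKI library stood far above the other 2, yet the lowest CIAKI value still exceeded the highest control value (log2 fold change 1.07, SE 0.26, limma adjusted p = 0.01). In the rat annotation of RefSeq the gene Slc5a3, a myo-inositol transporter gene of the osmotic response, lies inside Mrps6. No source used here says how reads in overlapping genes were counted, so which of the genes these reads came from is uncertain. Slc5a3 itself is not analysed here.

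Other small subunit genes that rose were Mrps22, Mrps2 and Mrps7. Mrps22, a mitochondria-specific protein, averaged 28.3 ± 3.01 CPM in CIAKI and 20.7 ± 0.869 CPM in control kidneys (SD, n = 3 each, log2 fold change 0.43, limma adjusted p = 0.0063). Mrps2 averaged 59.8 ± 4.12 CPM in CIAKI and 44.3 ± 1.99 CPM in control kidneys (0.42, limma adjusted p = 0.002). Mrps7, which lies in the head of the subunit, rose by 0.31 (limma adjusted p = 0.023).

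In the large subunit, Mrpl50 and Mrpl38 had the largest changes, and both encode mitochondria-specific proteins. Mrpl50 had 43.9, 34.9 and 45.2 CPM in CIAKI kidneys, against 25.2, 25.0 and 22.9 CPM in control kidneys (log2 fold change 0.73, SE 0.11, limma adjusted p = 0.00079). Mrpl38, a protein of the central protuberance, had 49.3, 44.5 and 43.0 CPM in CIAKI, against 27.6, 26.0 and 27.5 CPM in control (0.73, SE 0.09, limma adjusted p = 0.00033). Neither gene's groups overlapped, although the second CIAKI library was the lowest of its group for Mrpl50.

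Mrpl17, which has a bacterial counterpart near the exit of the peptide tunnel, had 101, 87.8 and 84.0 CPM in CIAKI, against 62.2, 63.8 and 61.2 CPM in control (0.53, SE 0.08, limma adjusted p = 0.0012). Mrpl45, which attaches the ribosome to the inner membrane, averaged 33.0 ± 2.82 CPM in CIAKI and 23.1 ± 2.34 CPM in control kidneys (0.50, limma adjusted p = 0.0046). Mrpl12, a stalk protein that also binds the mitochondrial RNA polymerase, had 84.8, 82.2 and 82.7 CPM in CIAKI, against 67.4, 67.1 and 63.6 CPM in control (0.33, limma adjusted p = 0.0057). These are 3 genes whose CIAKI libraries all lay above every control library.

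The other 10 large subunit genes that rose did so by 0.28 to 0.51. Mrpl55 rose by 0.51, Mrpl35 by 0.46, Mrpl46 by 0.45, Mrpl13 by 0.39, and Mrpl21 and Mrpl57 by 0.38 each. Mrpl19 rose by 0.31, and Mrpl41, also studied as a protein that promotes apoptosis, and Mrps30 by 0.30 each. Mrps18a, a relative of Mrps18b that sits in the large subunit, rose by 0.28 (limma adjusted p = 0.014), whereas the third relative, Mrps18c of the small subunit, had an estimate of 0.27 that did not pass (adjusted p = 0.056). All CIAKI libraries lay above all control libraries for each of these 10 genes.

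Of the 4 members that fell, Mrps26, a mitochondria-specific small subunit protein, fell most. It had 15.6, 14.7 and 16.4 CPM in CIAKI kidneys, against 21.7, 20.6 and 20.9 CPM in control kidneys (log2 fold change -0.41, SE 0.10, limma adjusted p = 0.011). Mrps16, a small subunit protein with a bacterial counterpart, had 25.5, 24.7 and 21.6 CPM in CIAKI, against 31.0, 31.4 and 28.4 CPM in control (-0.33, SE 0.09, limma adjusted p = 0.021). Both genes showed no overlap between the groups.

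Mrpl36, the least read member, had 4.02, 4.40 and 3.99 CPM in CIAKI, against 5.34, 5.56 and 5.39 CPM in control (-0.33, limma adjusted p = 0.047). Mrpl40 had 21.8, 22.2 and 22.4 CPM in CIAKI, against 26.8, 26.8 and 24.7 CPM in control (-0.23, limma adjusted p = 0.033). Mrpl36 shares its place in the genome with Ndufs6, an overlapping gene of respiratory complex I, so its reads may not be its own.

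**Figure D1:**
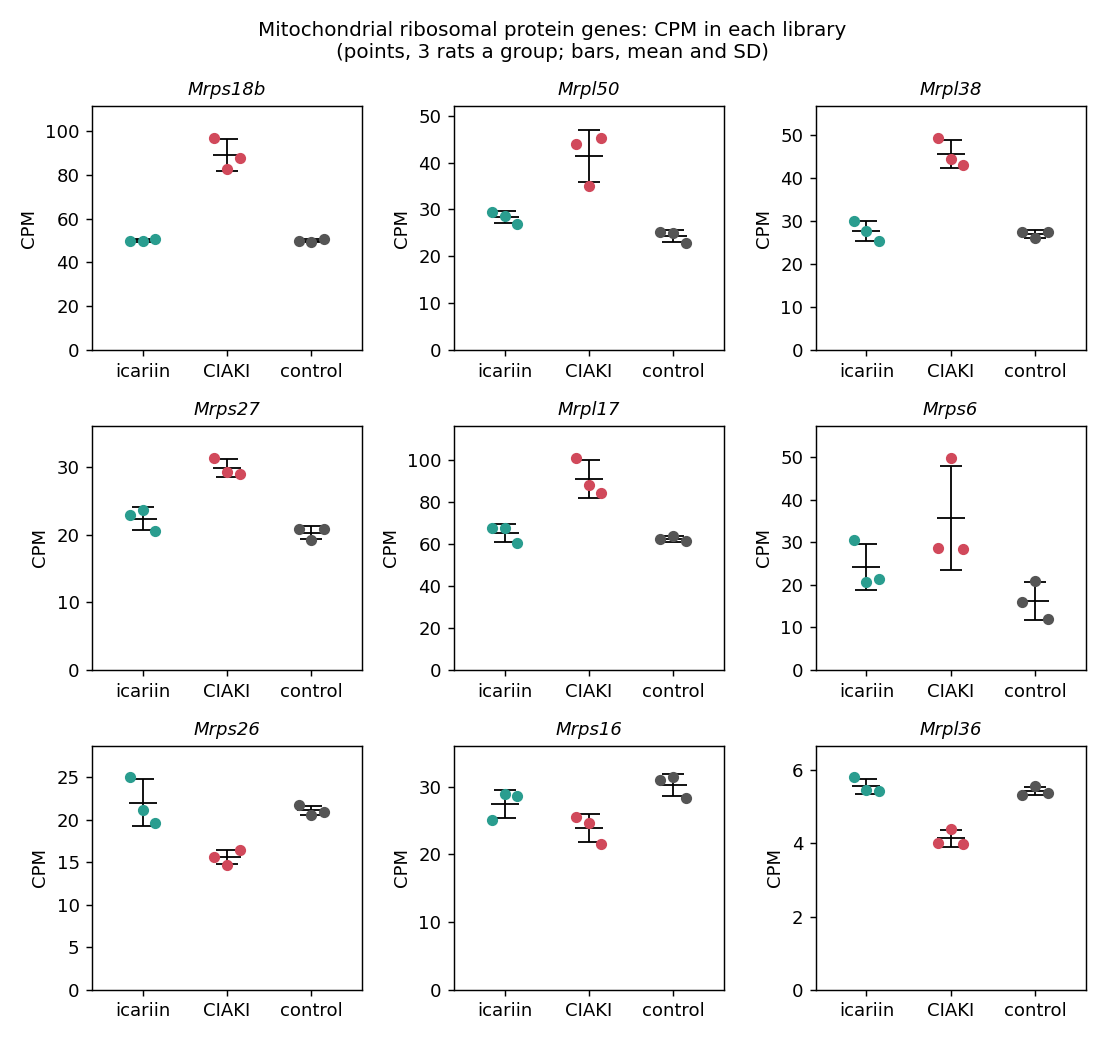
CPM (y axis, from 0) of 9 members in each library, with icariin, CIAKI and control kidneys along the x axis; points are rats and bars the mean and SD of 3. Mrps18b reads 82.6 to 96.6 CPM in the CIAKI libraries and 49.2 to 50.9 CPM in the control libraries, and Mrps26 is lowest in CIAKI.

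Several members with well-known roles did not pass. Mrps12, a protein of the decoding centre, had an estimate of 0.22 (SE 0.12, limma adjusted p = 0.18). Mrpl58, a peptidyl-tRNA hydrolase that rescues stalled ribosomes, had 0.18 (SE 0.08, adjusted p = 0.12). Mrpl44 had 0.20 (adjusted p = 0.068), Mrpl3 0.09 (adjusted p = 0.34) and Mrpl10, the base of the stalk that carries Mrpl12, 0.05 (adjusted p = 0.60). Mrpl15, the most read member, averaged 89.0 ± 6.74 CPM in CIAKI and 101 ± 6.12 CPM in control kidneys (-0.18, adjusted p = 0.075). Mrps28 had an estimate of -0.04 (adjusted p = 0.74). Nearest to no difference were Mrps15, Mrpl48 and Mrps17, at 0.01, -0.01 and -0.01 (SE 0.09 to 0.10).

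The members that passed were spread over both subunits. In CIAKI against control, 15 of 48 large subunit genes were higher and 2 lower (median 0.16), and 6 of 26 small subunit genes were higher and 2 lower (median 0.10). By origin, 11 of 31 mitochondria-specific genes were higher and 2 lower (median 0.19), and 10 of 43 genes with a bacterial counterpart were higher and 2 lower (median 0.09). Over all rows tested 20.8% were higher and 20.5% lower. In either direction 35.4% of large and 30.8% of small subunit genes passed, beside 41.3% of all rows. By origin these shares were 41.9% of mitochondria-specific genes and 27.9% of those with a bacterial counterpart. The median depended on the scaling and on single libraries: it was 0.09 for the large and 0.03 for the small subunit, 0.12 for mitochondria-specific genes and 0.02 for those with a bacterial counterpart with upper-quartile scaling. Without the second CIAKI library these medians were 0.23, 0.19, 0.26 and 0.16, the small subunit had 0.06 without the third CIAKI library, and the genes with a bacterial counterpart had 0.04 without the first. Lower genes of the large subunit numbered 0 without the first CIAKI, the first or the second control, or the first or the second icariin library. The differences between these classes were not tested.

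Some calls were lost when a library was left out, which also leaves fewer rats in the fit. Of the 25 members called, 17 were called in each of 23 alternative settings, among them Mrps6, Mrps18b, Mrpl50, Mrpl38, Mrps27, Mrpl17 and Mrps26. Mrpl55 was not called without the first or the second CIAKI or the second control library (adjusted p 0.073, 0.056 and 0.076), nor Mrps16 without the third CIAKI or the first or the second control library (0.063, 0.069 and 0.071). Mrpl13 was lost without the third control library (0.054), and Mrps18a without the first or the third control library (0.055 and 0.056). Mrps7 was lost without the first or the third CIAKI library or any control library (0.052 to 0.068). Mrpl19 was lost without the first or the third CIAKI, any control or the third icariin library (0.051 to 0.12), Mrpl36 without any library except the second CIAKI (0.057 to 0.12) and Mrpl40 without any except the third control and the third icariin (0.052 to 0.11). The number of lower members was 1 without the first or the second control library, and 2 without the first or the third CIAKI or the first or the second icariin library. Without the second CIAKI library the median of the members was 0.21. Mrpl19 was also lost with upper-quartile scaling (0.096) and Mrpl36 with quantile normalization (0.31).

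**Figure D2:**
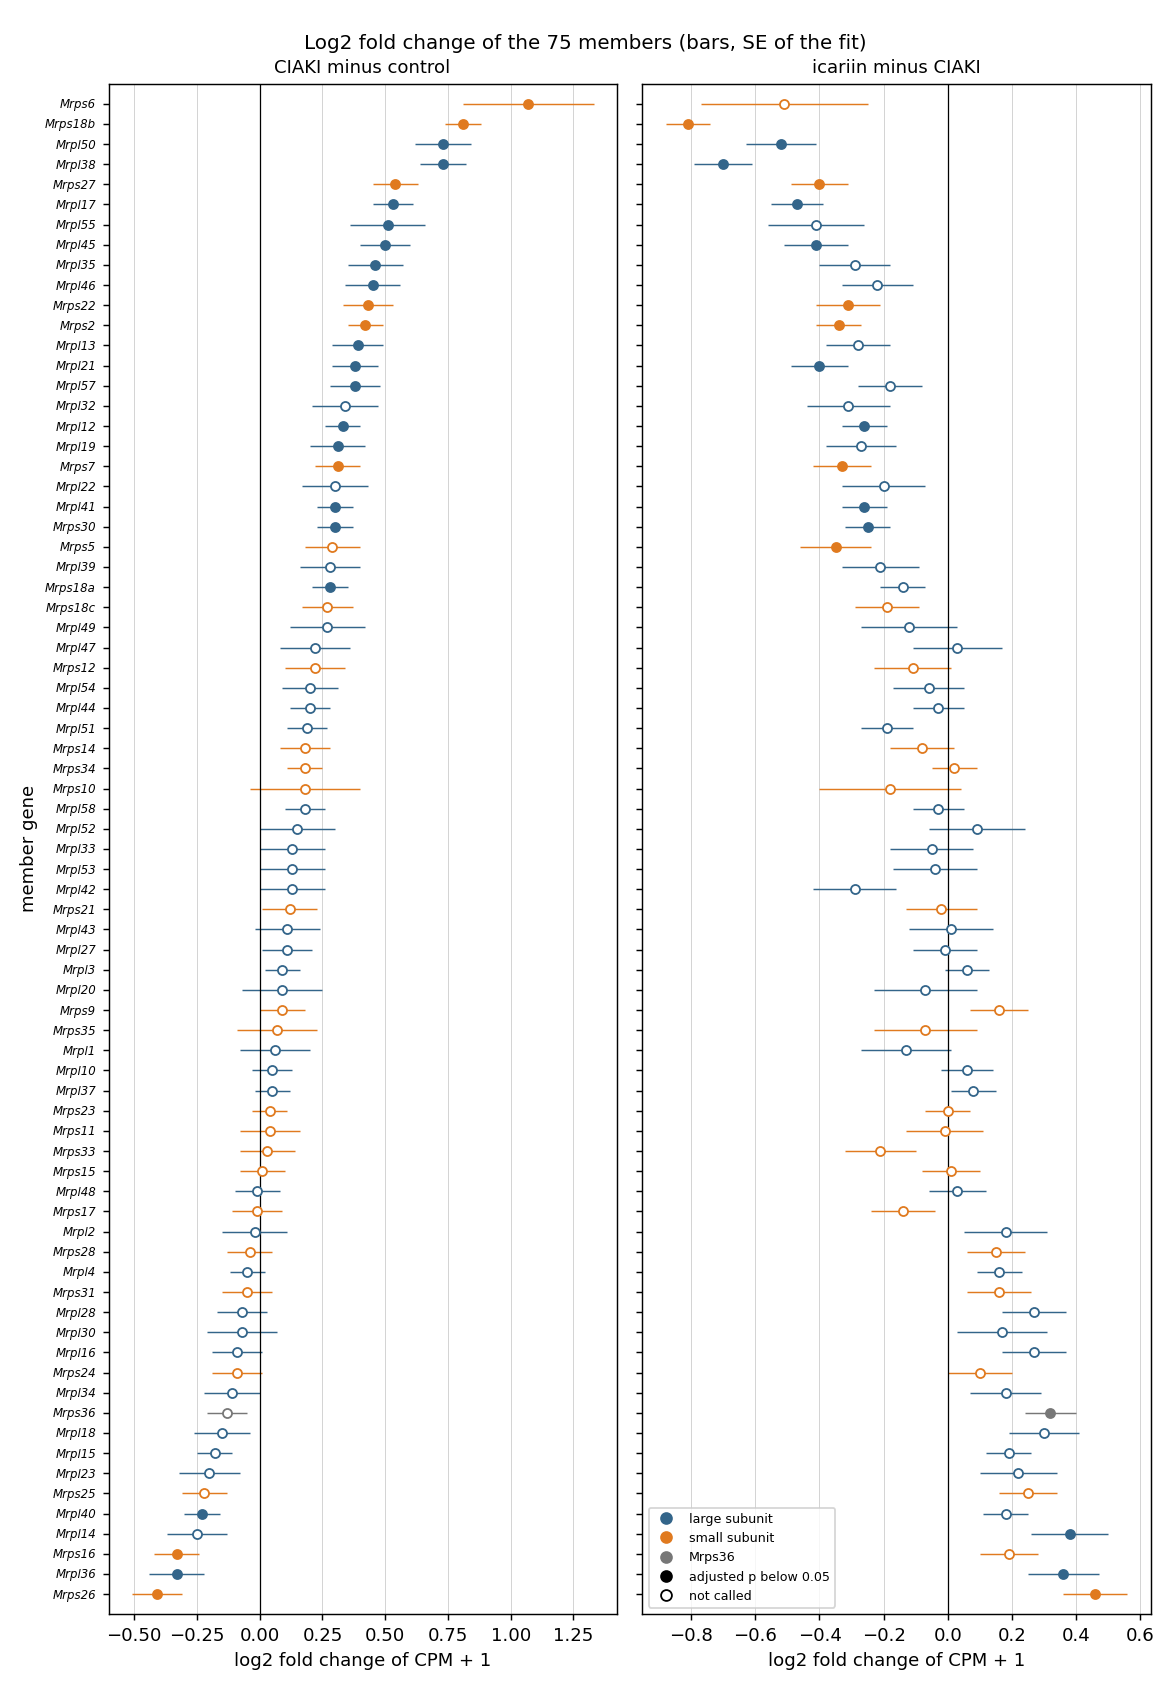
Log2 fold change of CPM + 1 (x axes, scaled separately) for each of the 75 members (y axis), CIAKI minus control on the left and icariin minus CIAKI on the right; bars are SE, filled points have an adjusted p below 0.05, and colours mark the subunit. The left panel runs between -0.41 (Mrps26) and 1.07 (Mrps6), with 21 filled points above 0 and 4 below, and the right panel has 4 above and 14 below.

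The comparison of icariin with CIAKI kidneys asks what icariin changed when given before the same protocol. Here 14 members were lower in icariin kidneys, 4 were higher and 57 did not pass. The median log2 fold change was -0.06, against 0.02 over all rows tested. The shares were 18.7% lower, beside 20.2% of all rows, and 5.33% higher, beside 19.2% of all rows; in either direction they were 24.0% and 39.4%. The split depended on the scaling: with upper-quartile scaling 12 members were higher and 11 lower, with a median of 0.01, and with quantile normalization 9 were higher and 14 lower. All icariin libraries lay below all CIAKI libraries for 23 members (25.9% of all rows) and above them for 13 (24.9% of all rows). The CIAKI libraries enter both comparisons, so the values in one are not independent of those in the other.

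Mrps18b stood at 49.8, 49.8 and 50.8 CPM in icariin kidneys, against 88.9 ± 7.07 CPM in CIAKI kidneys (SD, n = 3), a log2 fold change of -0.81 (SE 0.07, limma adjusted p = 9.4e-05). Mrpl38 stood at 30.0, 27.8 and 25.3 CPM in icariin kidneys, against 45.6 ± 3.27 CPM in CIAKI kidneys (-0.70, SE 0.09, limma adjusted p = 0.00047). Mrpl50 had 29.4, 28.7 and 27.0 CPM in icariin kidneys, against 41.4 ± 5.61 CPM in CIAKI kidneys (-0.52, SE 0.11, limma adjusted p = 0.0045). For all 3 genes every icariin library was below every CIAKI library.

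Mrpl17 had 67.6, 67.4 and 60.3 CPM in icariin kidneys, against 90.9 ± 8.87 CPM in CIAKI kidneys (-0.47, SE 0.08, limma adjusted p = 0.0023). Mrpl45 averaged 24.6 ± 1.67 CPM in icariin and 33.0 ± 2.82 CPM in CIAKI kidneys (-0.41, SE 0.10, limma adjusted p = 0.012). Mrps27 had 23.0, 23.6 and 20.5 CPM in icariin kidneys, against 29.9 ± 1.32 CPM in CIAKI kidneys (-0.40, limma adjusted p = 0.0058). Again no icariin library reached the lowest CIAKI library.

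The remaining 8 genes that fell were Mrpl21 (-0.40), Mrps5 (-0.35), Mrps2 (-0.34), Mrps7 (-0.33), Mrps22 (-0.31), Mrpl12 and Mrpl41 (-0.26 each) and Mrps30 (-0.25). Mrpl21 encodes a large subunit protein with a bacterial counterpart, and it averaged 14.9 ± 0.713 CPM in icariin and 20.1 ± 0.641 CPM in CIAKI kidneys (limma adjusted p = 0.0058). Mrps6 had 30.6, 20.7 and 21.5 CPM in icariin kidneys, against 35.7 ± 12.3 CPM in CIAKI kidneys, and the groups overlapped (-0.51, SE 0.26, limma adjusted p = 0.15).

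The 4 genes that were higher in icariin kidneys were Mrps26, Mrpl14, Mrpl36 and Mrps36. Mrps26 had 25.0, 21.2 and 19.6 CPM in icariin kidneys, against 15.6 ± 0.831 CPM in CIAKI kidneys (0.46, SE 0.10, limma adjusted p = 0.0072). Mrpl14, a large subunit protein with a bacterial counterpart, had 22.0, 23.7 and 20.8 CPM in icariin kidneys, against 14.3, 19.9 and 16.5 CPM in CIAKI kidneys (0.38, SE 0.12, limma adjusted p = 0.033). The second CIAKI library came close to the lowest icariin library for this gene.

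Mrpl36 had 5.81, 5.46 and 5.44 CPM in icariin kidneys, against 4.14 ± 0.228 CPM in CIAKI kidneys (0.36, limma adjusted p = 0.035). Mrps36, the dehydrogenase component, had 48.1, 41.3 and 44.9 CPM in icariin kidneys, against 36.8, 34.0 and 36.4 CPM in CIAKI kidneys (0.32, SE 0.08, limma adjusted p = 0.015). Neither gene's groups overlapped. Mrps16 and Mrpl40, lower in CIAKI than in control, had estimates of 0.19 (adjusted p = 0.14) and 0.18 (adjusted p = 0.072) for icariin against CIAKI.

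By subunit, 8 of 48 large subunit genes were lower in icariin than in CIAKI kidneys and 2 higher (median -0.05), and 6 of 26 small subunit genes were lower and 1 higher (median -0.08). Of the mitochondria-specific genes 8 of 31 were lower and 1 higher (median -0.12), and of those with a bacterial counterpart 6 of 43 were lower and 2 higher (median -0.02). Over all rows tested 20.2% were lower and 19.2% higher. In either direction 20.8% of large and 26.9% of small subunit genes passed, beside 39.4% of all rows. By origin these shares were 29.0% of mitochondria-specific genes and 18.6% of those with a bacterial counterpart. With upper-quartile scaling 6 large subunit genes were lower and 8 higher (median 0.01), and of the genes with a bacterial counterpart 6 were lower and 8 higher. The median of these was 0.05 with that scaling, 0.02 with quantile normalization and 0.06 without the first CIAKI library. Calls in all 23 alternatives numbered 9 of 18: Mrps18b, Mrpl38, Mrpl50, Mrpl17, Mrpl45, Mrps27, Mrpl21, Mrps2 and Mrps26.

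The other 9 calls were each lost without at least 1 library. Mrpl12 was lost without the third icariin library (adjusted p = 0.05) and Mrps36 without the first icariin library (0.059). Mrps7 was lost without the first CIAKI or the third icariin library (0.053 and 0.06), and Mrpl41 without the third CIAKI or the second icariin library (0.051 and 0.052). Mrps5 was lost without the first CIAKI or the second or the third icariin library (0.076 to 0.088), and Mrps30 without the first CIAKI or any icariin library (0.051 to 0.076). Mrps22 was lost without the first or the third CIAKI or any icariin library (0.052 to 0.083). Mrpl14 was lost without the first or the third CIAKI, the first control or the first or the second icariin library (0.051 to 0.11), and Mrpl36 without any library except the second CIAKI (0.052 to 0.1). With upper-quartile scaling Mrpl41, Mrps22 and Mrps30 were not called (0.059, 0.054 and 0.064), and with quantile normalization Mrpl41, Mrps30 and Mrpl36 were not (0.062, 0.072 and 0.19). The number of lower members was 9 without the third icariin library. The number of higher members was 2 without the first control or the first or the second icariin library.

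Of the 75 members, 2 are in the authors' deposited table of selected mRNAs. That table holds 3975 mRNAs, beside 36267 rows in the whole gene table. It gives values per transcript length (FPKM) for icariin and CIAKI kidneys. In the authors' deposited table Mrps18b had 36.8, 36.5 and 38.3 FPKM in icariin kidneys, against 68.6, 60.6 and 64.6 FPKM in CIAKI kidneys. Mrpl38 had 18.0, 16.6 and 15.5 FPKM in icariin kidneys, against 28.3, 26.4 and 25.7 FPKM in CIAKI kidneys in the authors' deposited table. Per length, Mrps18b was therefore the higher of the 2 in every one of these libraries.

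Icariin and control kidneys were compared last, to ask whether the genes differed from untreated tissue. In limma, 0 of 75 members passed, beside 0.628% of all rows tested (0.4% higher and 0.227% lower), and 2 had an unadjusted p below 0.05, beside 10.2% of all rows. With edgeR on the recovered reads 0 members passed, beside 0.454% of all rows, and with DESeq2 0 members passed, beside 3.13%. With each of these tools 7 members had an unadjusted p below 0.05. The share of all rows at that threshold was not taken for these tools, so the count says nothing particular to the members. The 2 genes of the limma fit were Mrps9, at 32.5 ± 1.33 CPM in icariin and 27.1 ± 1.98 CPM in control kidneys (log2 fold change 0.25, SE 0.09, adjusted p = 0.33), and Mrps34, at 54.4 ± 3.58 CPM in icariin and 47.1 ± 0.165 CPM in control kidneys (0.20, SE 0.07, adjusted p = 0.36). Estimates ran between -0.18 and 0.56 with a median of 0.09, against 0 over all rows, and 64 of 75 were positive. All icariin libraries lay above all control libraries for 15 members (9.12% of all rows) and below them for 1 member, Mrpl42 (10.2% of all rows). Mrps18b had an estimate of 0 (SE 0.07), Mrpl38 of 0.03 (SE 0.09), Mrpl50 of 0.21 (SE 0.11) and Mrps6 of 0.56 (SE 0.26). A value that missed the threshold does not show that the groups are alike.

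Summed over the members, the level was 2168, 2195 and 2085 CPM in icariin kidneys, 2402, 2177 and 2361 CPM in CIAKI kidneys, and 2028, 2055 and 1989 CPM in control kidneys. The groups averaged 2149 ± 57.1 CPM in icariin, 2313 ± 120 CPM in CIAKI and 2024 ± 33.3 CPM in control (SD, n = 3 each). The second CIAKI library lay inside the range of the icariin libraries, and the other 2 lay above all other libraries. That library was below the mean of the other 2 CIAKI libraries for all but 8 of 75 members, with a median log2 difference of -0.15. Against the control mean, the median of the members was 0.25, 0.02 and 0.19 in the 3 CIAKI libraries and 0.10, 0.12 and 0.05 in the 3 icariin libraries, while the median of all rows was within -0.06 and 0.05 in these 6.

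Within a group the members varied little. Their median coefficient of variation was 5.8% in icariin, 8.8% in CIAKI and 6.0% in control kidneys, beside 10.8%, 14.8% and 9.5% for all rows tested in the same groups. All rows include those near the filter of 1 CPM, where counting error is larger. Members and all rows were not matched for level. Mrps10 varied most, at 40.4% in CIAKI, where it had 21.4, 10.2 and 12.3 CPM. Mrps6 was the most variable member of the other groups, at 22.6% in icariin and 27.3% in control kidneys.

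Genes for other parts of mitochondrial translation were taken from lists. None of the genes in any list passed between icariin and control kidneys, beside 0.628% of all rows tested. The counts of every list below stand beside these shares of all rows. In CIAKI against control kidneys 20.8% were higher and 20.5% lower, together 41.3%. In icariin against CIAKI kidneys 19.2% were higher and 20.2% lower, together 39.4%. Of the 5 mitoribosome proteins with other symbols, 3 rose in CIAKI kidneys. Aurkaip1 (0.28, limma adjusted p = 0.011), Chchd1 (0.37, adjusted p = 0.042) and Dap3 (0.25, adjusted p = 0.027) rose, and Gadd45gip1 and Ptcd3 had estimates of 0.20 and 0.12 that did not pass. With upper-quartile scaling 1 of the 5 rose, as without the third CIAKI or any control library, and Aurkaip1 alone was called without each library in turn. Chchd1 fell in icariin against CIAKI kidneys (-0.44, adjusted p = 0.022), a call lost without the first or the third CIAKI or the first icariin library (0.057 to 0.073), and the other 4 did not pass, with estimates of -0.20 to 0.03.

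Among 27 genes for assembly of the mitoribosome, 7 rose and 3 fell in CIAKI kidneys, with a median of 0.14 (4 and 3 with upper-quartile scaling). Fastkd2, an RNA-binding protein needed for the large ribosomal RNA, had 45.5, 43.4 and 40.7 CPM in CIAKI, against 25.3, 25.3 and 22.8 CPM in control (log2 fold change 0.80, SE 0.08, limma adjusted p = 0.00018). Noa1, a GTPase of small subunit assembly, averaged 23.2 ± 1.46 CPM in CIAKI and 13.6 ± 1.62 CPM in control kidneys (0.73, SE 0.13, adjusted p = 0.0022). Mterf4, which acts with a ribosomal RNA methyltransferase, rose by 0.53 and the methyltransferase Mrm3 by 0.58. Rbfa, a small subunit assembly factor, fell by 0.36, the methyltransferase Mettl15 by 0.47 and the pseudouridine synthase Rpusd3 by 0.51. Of these 10 genes Fastkd2, Noa1, Mterf4, Mrm3 and Rbfa were called without each library in turn. Mettl15 was lost without any library except the third CIAKI and the third control, and Rpusd3 without any except the third CIAKI. The number that rose was 4 without the third CIAKI or the second or the third control library, and the median was 0.08 without the first CIAKI library and 0.07 with upper-quartile scaling.

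Of these 27 assembly genes, 4 were lower and 3 higher in icariin than in CIAKI kidneys, with a median of -0.06 (0 with upper-quartile scaling). Fastkd2 averaged 22.6 ± 1.36 CPM in icariin and 43.2 ± 2.38 CPM in CIAKI kidneys (-0.91, SE 0.08, limma adjusted p = 0.00013). Noa1 changed by -0.78, Mterf4 by -0.53 and Mpv17l2 by -0.34. Rpusd3 averaged 21.7 ± 0.359 CPM in icariin and 9.24 ± 2.34 CPM in CIAKI kidneys (a log2 fold change of 1.18, SE 0.17, limma adjusted p = 0.00099), and Mettl15 and Rbfa were higher by 0.55 and 0.33. Mettl15 was lost without the first CIAKI or the first or the second icariin library (adjusted p 0.062 to 0.078) and Rbfa without the second icariin library (0.053). The median was 0 without the first CIAKI library and -0.12 without the second.

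Among 19 translation factors and related genes, 1 rose and 5 fell in CIAKI kidneys. Their median of 0.01 was -0.06 with upper-quartile scaling, -0.02 with quantile normalization or without the third CIAKI library, and -0.01 without the first control library. Pdf, the peptide deformylase, rose by 0.42, and Letm1, Taco1, Oxa1l, Mrrf and Guf1 fell by 0.26 to 0.42. Oxa1l, the insertase that receives new chains at the inner membrane, averaged 87.9 CPM in CIAKI and 105 CPM in control kidneys (-0.26, SE 0.07, limma adjusted p = 0.017), and Mrrf, the recycling factor, fell by 0.42 (adjusted p = 0.023). Pdf was lost without any CIAKI or control library (adjusted p 0.054 to 0.08), and Letm1 and Taco1 alone were called without each library in turn. The number that fell was 3 without the first CIAKI or the first or the second control library. Between icariin and CIAKI kidneys, 4 of the 19 were higher in icariin (Oxa1l 0.33, Mrrf 0.44, Taco1 0.39, Letm1 0.27) and Slirp was lower (-0.45), with a median of 0.05, or -0.01 without the first CIAKI library. Slirp was lost without any library except the second CIAKI and the first and the second control (adjusted p 0.05 to 0.11), and Mrrf without the second or the third CIAKI or the second icariin library (0.053 to 0.06).

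Of 17 mitochondrial tRNA synthetase genes, 3 rose and 2 fell in CIAKI kidneys. Their median was 0.02, or -0.04 without the first CIAKI library, and with upper-quartile scaling 3 rose and 4 fell (median -0.05). Yars2, for tyrosine, had 22.8, 19.7 and 23.4 CPM in CIAKI, against 12, 10.1 and 10.7 CPM in control (0.94, SE 0.11, limma adjusted p = 0.0003), and Mars2 and Fars2 rose by 0.63 and 0.35. Cars2, for cysteine, fell by 0.51. In icariin against CIAKI kidneys Yars2 changed by -0.83 and Fars2 by -0.31, while Cars2, Tars2 and Iars2 were higher by 0.58, 0.36 and 0.23 (median of the list -0.04, or 0.02 with upper-quartile scaling). Mars2 was lost without the first or the third control library (adjusted p 0.054 and 0.053). Tars2 and Iars2 were both lost without the first or the second icariin library, and Iars2 also without the second or the third CIAKI library.

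Of 15 genes for mitochondrial transcription, RNA processing and DNA maintenance, 7 rose and 2 fell in CIAKI kidneys (median 0.20), or 6 and 3 with upper-quartile scaling. Trmt10c, a subunit of mitochondrial RNase P, rose by 0.61 (SE 0.09, limma adjusted p = 0.00098), Elac2, the enzyme of the tRNA 3′ end, by 0.47, Tfam, the DNA packaging factor, by 0.38 and Polg by 0.35. Hsd17b10, another RNase P subunit, fell by 0.24 and Mterf2 by 0.36. Hsd17b10 was lost without the first CIAKI or the second or the third control library (0.054 to 0.075), and Mterf2 without the first or the third CIAKI or the first or the second control library (0.054 to 0.11). In icariin against CIAKI kidneys 2 were higher and 5 lower, among them Trmt10c at -0.67 and Tfam at -0.30. The median was -0.05, or 0.01 without the third icariin library and 0.01 with upper-quartile scaling, where 3 were higher and 3 lower. The number lower was 3 without the first CIAKI or any icariin library, and Tfam was lost without the first or the third CIAKI or the first or the second icariin library (0.05 to 0.073).

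Regulators of nuclear genes for mitochondria did not move as 1 group: 3 of 9 rose and 3 fell in CIAKI kidneys. Myc, which drives ribosome synthesis and growth, had 68.0, 111 and 50.5 CPM in CIAKI, against 6.19, 7.61 and 7.97 CPM in control (3.16, SE 0.27, limma adjusted p = 7.8e-05). Pprc1, a coactivator of the PGC-1 family, rose by 1.05 and Gabpa, an ETS factor, by 0.31. The other coactivators of the family fell, Ppargc1b by 0.76 and Ppargc1a by 0.40, and so did the nuclear receptor Esrra, by 0.32. Nrf1 had an estimate of 0.20 (adjusted p = 0.15).

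Myc averaged 8.53 ± 2.15 CPM in icariin and 76.5 ± 31.1 CPM in CIAKI (-2.98, limma adjusted p = 0.00013). Pprc1 changed by -1.41 and Gabpa by -0.34, and Ppargc1b, Esrra and Ppargc1a were higher by 0.91, 0.52 and 0.32. Esrra in CIAKI against control was lost without the first CIAKI or any control library (adjusted p 0.058 to 0.078), and Ppargc1a in icariin against CIAKI without the first icariin library (0.059). The median of the 9 regulators was 0.17 for CIAKI against control and -0.18 for icariin against CIAKI.

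Set beside the cytosolic ribosome and the respiratory chain, the mitochondrial ribosomal protein genes had a median between theirs. Of 85 cytosolic ribosomal protein genes tested, 70 were higher and 0 lower in CIAKI than in control kidneys, with a median of 0.63. Many have near-identical copies elsewhere in the genome, which makes their counts uncertain. They were taken by symbol and counted by row, so a symbol with several rows, such as Rpl21, counts for each of them. Related genes such as Rpl7l1, Rpl22l1 and Rps27l are among them. Of 89 nuclear genes of the respiratory chain, 5 were higher and 39 lower, with a median of -0.24. With a library other than the second CIAKI left out, 2 or 3 were higher. The respiratory chain list was also taken by symbol, with repeated symbols such as Uqcrb. It also holds assembly factors of complex I (Ndufaf genes) and the ATPase inhibitor Atp5if1. The 5 higher genes were Ndufaf2, Ndufaf4, Ndufaf6, Atp5if1 and the subunit gene Cox5a. In icariin against CIAKI kidneys 0 of the cytosolic genes were higher and 68 lower (median -0.55), and 47 of the respiratory chain genes were higher and 2 lower (median 0.28). The 2 lower were Atp5if1 and Ndufaf4, neither of them a subunit gene. These counts and medians are descriptions, and no test of the difference between lists was made.

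Among the 13 protein-coding genes of mitochondrial DNA, whose messages these ribosomes translate, 0 were higher and 2 lower in CIAKI than in control kidneys. Mt-co2 averaged 2530 ± 832 CPM in CIAKI and 4420 ± 674 CPM in control kidneys (-0.85, SE 0.27, limma adjusted p = 0.03), and Mt-nd6 fell by 0.54 (adjusted p = 0.018). Mt-nd6 was higher by 0.50 in icariin than in CIAKI kidneys (adjusted p = 0.025). Each of these calls was lost when any of several libraries was left out, which also leaves fewer rats in the fit. Mt-co2 was lost without the second or the third CIAKI or the first or the third control library (0.053 to 0.095). Mt-nd6 was lost against control without the second or the third CIAKI or the third control library (0.05 to 0.058), and in icariin against CIAKI without the second or the third CIAKI or the second or the third icariin library (0.067 to 0.086). Together these genes took 5.35%, 1.65% and 5.71% of reads in the icariin libraries, 4.0%, 4.23% and 3.96% in the CIAKI libraries and 5.34%, 3.86% and 4.59% in the control libraries. The second icariin library had the lowest share, with 437 CPM for Mt-co1 beside 22800 to 38200 CPM in the other libraries. Other genes of this list varied widely in other libraries. Mt-co3 had 143, 1870 and 3780 CPM in the icariin libraries and 2450, 2110 and 603 CPM in the control libraries. Mt-nd3 had 167, 112 and 31.3 CPM in the icariin libraries. The mitochondrial ribosomal RNAs are not analysed here.

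**Figure D3:**
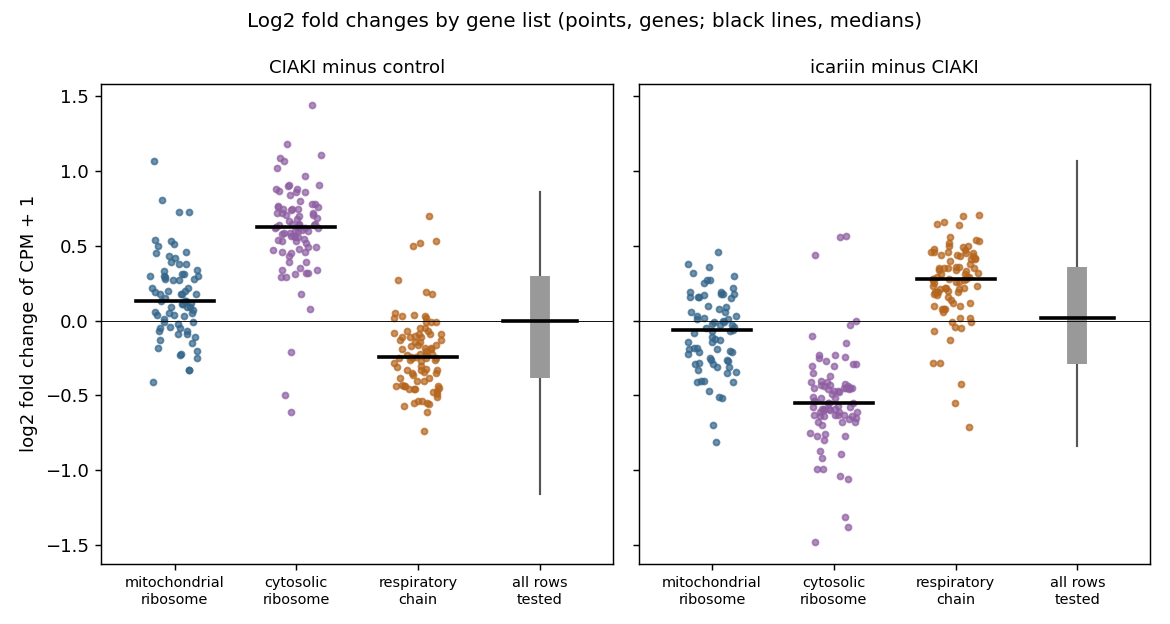
Log2 fold change of CPM + 1 (y axis) for each tested gene of 3 lists, CIAKI minus control on the left and icariin minus CIAKI on the right; points are genes, black lines medians, and for all rows tested the box spans the 25th to 75th and the whisker the 5th to 95th percentile. The median of the mitochondrial ribosomal protein genes is 0.13 on the left, between 0.63 for the cytosolic and -0.24 for the respiratory chain genes.

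The promoters of the members were searched for 4 motifs of factors linked to mitochondrial or ribosomal genes, on both strands of the 250 bases before the start. RefSeq gave a promoter for 60 of the 75 members by symbol. The ETS motif CCGGAAG was found before 13 of the 60 (21.7%), beside 9.52% of all 19005 protein-coding promoters of the same length. The NRF1 motif, read as GCGCA, any 1 base and GCGC, was found before 7 (11.7%, beside 5.45%), the YY1 motif AAGATGG before 5 (8.33%, beside 4.41%) and the E-box CACGTG, which MYC can bind, before 4 (6.67%, beside 6.38%). In all 20 members held at least 1 of 32 matches, and none of the matches overlapped another motif. The median GC content was 54.4% for members and 54.8% for all promoters. A match is a stretch of letters and not a shown binding site.

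Matches were found before members of every kind of call. Of 15 members with a promoter that were higher in CIAKI than in control kidneys, 3 held an ETS, 4 an NRF1, 0 a YY1 and 1 an E-box motif. Of the 41 that were not called, 9 held an ETS, 3 an NRF1, 4 a YY1 and 2 an E-box motif. Of the 4 that were lower, Mrpl36 held an ETS, a YY1 and an E-box motif. The 4 higher members with an NRF1 motif were Mrps18b, Mrpl17, Mrpl45 and Mrpl57, at 9 to 229 bases before the start. The motif of Mrps18b lies 11 to 20 bases before the start, in the capitals near the end of its sequence above.

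**Figure D4:**
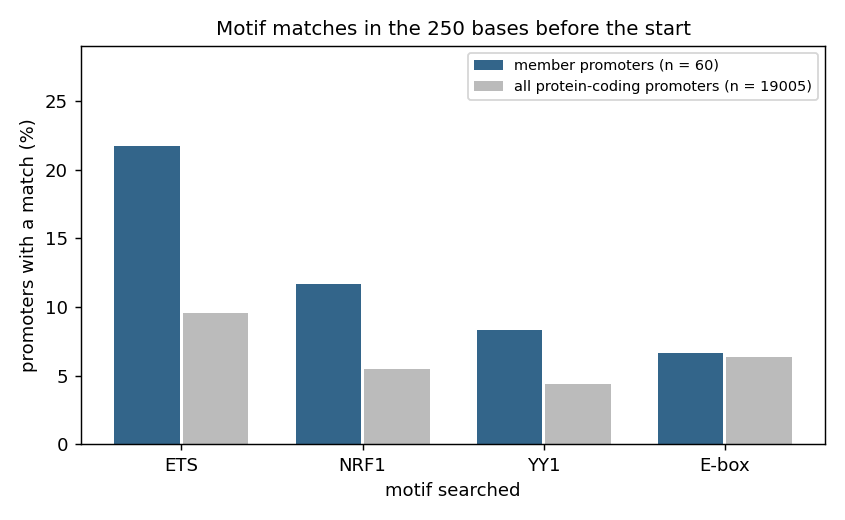
Share of promoters (y axis, percent, from 0) with at least 1 match to each of 4 motifs (x axis) in the 250 bases before the start, for 60 members and all 19005 protein-coding promoters. The ETS share is 21.7% of members beside 9.52% of all, and the E-box shares are 6.67% and 6.38%.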

How the data were processed

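Total RNA of 9 kidneys, 1 library per rat and 3 rats a group, was sequenced from Illumina TruSeq libraries, per the labels. Bowtie 0.12.2 and the build mm8 are named in the submitters' processing notes; mm8 is a mouse build and the identifiers in the table are rat Ensembl genes, so the reference used is not settled. No source used here gives the counter, its strand setting or its handling of shared reads. The authors deposited the main table in CPM. Every value (100%) gave back whole reads (within 0.1), which matched each of 23850 read counts in the authors' deposited table of selected mRNAs. That table also holds FPKM, per the file headers.

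Rows that reached 1 CPM in 3 or more libraries (16731 of 36267) were tested with limma 3.58.1 in R 4.3.3, with an intensity trend, on log2(CPM + 1), two-sided, with group as the factor over all 9 libraries. P-values were adjusted by Benjamini-Hochberg over all rows in each comparison, and called below 0.05. The fit was tested on simulated data. Alternatives were edgeR 4.0.16 (quasi-likelihood) and DESeq2 1.42.0 on recovered reads, other scalings, pseudocounts and filters, and leaving out each library.

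Members and lists were chosen with earlier results of these data known. Named genes were, per comparison and direction, up to 10 called members by log2 fold change, the 5 most read, the 3 nearest to 0, members fixed for their role, and up to 4 called genes per direction of each list. Promoters came from RefSeq (GRCr8), matched by symbol.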

Additional observations from a re-analysis of the deposited data

How the results depend on the processing

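Over 23 alternatives for named genes and counts, 5173 values kept their side of the threshold, 206 dropped below it and 72 rose past it. Of the 5173, 78 that were not called changed sign, and 0 called values turned round. For CIAKI against control, lower members numbered 2 with only the 2 groups compared and 2 with the replicate number as a block. Leaving out 1 library at a time gave 1 to 4 lower and 17 to 26 higher members, and medians of 0.09 to 0.21. For icariin against CIAKI, higher members numbered 8 with DESeq2, 2 with no filter on low values, 2 with only the 2 groups compared, 9 with quantile normalization and 12 with upper-quartile scaling, and 2 to 5 when 1 library was left out. Lower members then numbered 9 to 18. For icariin against control, the count over all rows was 105, with 523 for DESeq2, 52 with no filter, and 31 to 127 with 1 library left out; members called stayed at 0 in all of these. The causes were not tested.

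Deviations from the group mean correlated at -0.03 to 0.08 between libraries with the same replicate number. Between libraries of different groups with different numbers they correlated at -0.10 to 0.04. Both ranges lie near 0 and overlap, so whether the numbers pair rats cannot be settled from them. With the replicate block 20 members were higher and 2 lower in CIAKI than in control kidneys. Every member had at least 257 reads in each library, but with 3 rats a group small changes can be missed.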

Other observations

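The symbol rule is case-sensitive, and 3 rows spelled in lower case, mrpl9, mrpl11 and mrpl24, stayed outside it. The first and the last were named after their values were seen. The row mrpl24 averaged 26.2 ± 0.734 CPM in icariin, 42.0 ± 6.47 CPM in CIAKI and 25.4 ± 1.35 CPM in control kidneys (SD, n = 3 each). Its log2 fold change was 0.70 for CIAKI against control (limma adjusted p = 0.0011) and -0.65 for icariin against CIAKI (limma adjusted p = 0.0017). The authors' deposited table of selected mRNAs also holds mrpl24, at 12.9 ± 0.221 FPKM in icariin and 20.2 ± 2.67 FPKM in CIAKI kidneys. For CIAKI against control mrpl9 rose by 0.27 (adjusted p = 0.023), and mrpl11 had an estimate of -0.03 (adjusted p = 0.79). For icariin against CIAKI neither passed, with estimates of -0.05 for mrpl9 (limma adjusted p = 0.66) and 0.19 for mrpl11 (limma adjusted p = 0.098).

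In the RefSeq annotation 74 members were found once by symbol. Of these, 16 overlap a protein-coding gene, among them Mrpl55 (Guk1), Mrps2 (Pierce1), Mrpl57 (Ska3) and Mrpl14 (Tmem63b), and 22 have pseudogenes of the same symbol, 37 in all, so some of their reads may belong to other loci. A protein-coding gene starts within 1000 bases on the other strand for 17 members, and 16 of these partners were tested. In CIAKI against control kidneys 5 partners were higher, 1 was lower and 10 did not pass, while 20.8% of all rows were higher and 20.5% lower. The members Mrpl46 and Mrps11 are partners of each other, so this pair enters from both sides, and Mrpl46 is among the 5 higher partners. Of the 6 called members with a tested partner, 2 had a partner called in the same direction, Mrps7 with Gga3 (0.49) and Mrpl41 with Pnpla7 (0.29), and 0 in the opposite one. Ppp1r10, the partner of Mrps18b, had an estimate of -0.27 (adjusted p = 0.24). Tcp1, a subunit of a cytosolic chaperonin that starts beside Mrpl18, rose by 0.81 (adjusted p = 0.00012), while Mrpl18 had an estimate of -0.15 (adjusted p = 0.29).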
